A study of Mus musculus with 2 samples.

Results

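Messenger RNA of lysosomal proteases and of their secreted inhibitor was described in liver cells of mice with fibrosis induced by carbon tetrachloride (CCl4), a hepatotoxin. The genes were 8 cathepsins (Ctsa, Ctsb, Ctsc, Ctsd, Ctsh, Ctsl, Ctss and Ctsz), the lysosomal protease legumain (Lgmn) and 1 cystatin (Cst3, cystatin C). They were taken by gene symbol, and each of the 10 symbols matched 1 of the 55357 genes in both libraries. The identifiers in the files are ENSMUSG00000017760 (Ctsa), ENSMUSG00000021939 (Ctsb), ENSMUSG00000030560 (Ctsc), ENSMUSG00000007891 (Ctsd), ENSMUSG00000032359 (Ctsh), ENSMUSG00000021477 (Ctsl), ENSMUSG00000038642 (Ctss), ENSMUSG00000016256 (Ctsz), ENSMUSG00000021190 (Lgmn) and ENSMUSG00000027447 (Cst3). Legumain is a lysosomal protease outside the cathepsins, and no cystatin other than Cst3 was among the 10, so the set is mainly one of proteases. Droplet single-cell RNA sequencing gave 2 libraries, 1 from mice given CCl4 and 1 from mice given CCl4 and IPA. IPA stands for indole propionic acid, which gut bacteria make from tryptophan. Both groups carried the CCl4 injury, and uninjured liver was not analysed here. The strain, sex, age, dose, timing and number of animals, and whether animals were pooled, are not given in the sources used here. Liver was digested enzymatically, red cells were lysed and dead cells removed before capture.

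Cathepsins are made as inactive precursors, carried to the lysosome mostly by the mannose-6-phosphate pathway, and activated by acid pH and by other proteases. Most are cysteine proteases, whereas cathepsin D is an aspartic and cathepsin A a serine protease. Legumain cuts after asparagine and trims the chains of several cathepsins, and cystatin C is secreted and blocks cysteine cathepsins and, at another site, legumain. In the liver these enzymes are known for degrading material taken up by macrophages, for antigen processing in dendritic cells and B cells, and for turning over matrix.

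The CCl4 library held 10427 barcodes and the CCl4+IPA library (IPA library from here on) 10471, with median depths of 3172 and 2771 unique molecular identifiers (UMIs) and totals of 45009730 and 37983923. After filters and doublet removal 10008 and 10127 cells were analysed, and 23 barcode sequences occurred in both libraries. Cells were clustered without the 10 genes and assigned to classes by marker genes, so each class name means cells like that type; 1014 and 590 cells stayed unnamed. The median mitochondrial share was 3.53% and 1.78%, and the ribosomal RNA gene Rn18s-rs5 was at 67892 CPM (UMIs scaled to a total of 1000000 in a class) and 9414 CPM in monocytes and macrophages. The 10 genes made up 0.273% and 0.214% of all UMIs. Cystatin C gave the most UMIs of the 10, 40984 and 21878, and legumain the fewest, 2472 and 1382, but the files do not give levels per transcript length, so levels are compared between cell classes and libraries and not between genes. Values are given as CCl4 library first and IPA library second, and brackets hold exact 95% intervals. These intervals hold counting error alone. No test was run, as each group is a single library, and every difference between libraries is a difference between those libraries.

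Promoter windows are shown for 3 genes that were all higher in macrophages than in monocytes, by folds of 10.6 and 17.4 for Lgmn, 2.54 and 1.85 for Ctss and 1.5 and 1.57 for Ctsc. They were not the only such genes, as Ctsb, Ctsd, Ctsh and Ctsz were also higher in macrophages in both libraries. A link between motifs and these folds was not tested. RefSeq windows (GRCm38.p6) of 250 bases before and 50 after a transcription start were found for 8 of the 10 genes, 10 windows in all. The bases before the start are printed in transcript direction. Capitals mark CACGTG in Lgmn, a palindrome of the E-box type bound by TFEB, TFE3 and other basic helix-loop-helix factors, and GAGGAA or its reverse complement in Ctss and Ctsc, a core bound by PU.1 and other ETS factors. The Lgmn window, before 1 of its 2 RefSeq starts, is chr12:102439093-102439342 on the minus strand. The Ctss window is chr3:95526536-95526785 and the Ctsc window chr7:88277835-88278084, both on the plus strand.
Lgmn: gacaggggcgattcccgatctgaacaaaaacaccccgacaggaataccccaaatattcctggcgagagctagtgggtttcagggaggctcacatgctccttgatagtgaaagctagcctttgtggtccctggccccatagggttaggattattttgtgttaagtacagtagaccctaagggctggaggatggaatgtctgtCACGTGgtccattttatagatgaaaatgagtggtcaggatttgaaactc
Ctss: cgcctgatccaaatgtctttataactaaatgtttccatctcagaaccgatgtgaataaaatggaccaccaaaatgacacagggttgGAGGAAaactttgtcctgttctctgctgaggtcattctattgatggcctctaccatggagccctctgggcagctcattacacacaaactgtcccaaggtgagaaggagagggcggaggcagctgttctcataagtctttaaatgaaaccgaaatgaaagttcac
Ctsc: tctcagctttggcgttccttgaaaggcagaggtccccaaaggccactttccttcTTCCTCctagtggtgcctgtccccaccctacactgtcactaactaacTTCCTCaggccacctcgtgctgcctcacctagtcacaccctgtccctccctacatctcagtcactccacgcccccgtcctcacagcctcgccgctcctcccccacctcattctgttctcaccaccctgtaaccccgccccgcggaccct

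With both strands searched and the first transcribed base counted as 0, CACGTG began at -49 in the printed Lgmn window. The other Lgmn window (chr12:102439679-102439978, minus strand) held 0 matches. Its bases after the start lie in annotated transcripts of the gene, whereas those of the printed window do not. It began at -245 and -98 in Ctsd, at -236 in Ctsl, and at -12 and 5 in 1 of the 2 windows of Ctsa. In all, 4 of the 10 windows held it, against 7.15% of 32851 windows of that length. GAGGAA was in 3 of the 10 windows against 28.3% of all, and began at -164 and 0 in Ctss, at -196 and -149 in Ctsc and at -230 in Cst3. The Ctsz window held neither. These matches are letters in a window, and binding was not measured.

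The 10 genes followed different cell classes. Over the 9 classes that had 50 cells or more in both libraries, the fold between the highest and the lowest class was smallest for Ctsa, 12- and 7.61-fold. It passed 100 in both libraries for Ctsh, 127- and 118-fold, and for Ctsl, 183- and 111-fold. Ctsb, Ctsh, Ctsl and Ctsz were highest in plasmacytoid dendritic cells, Ctsa, Ctsc and Ctss in monocytes, Cst3 in conventional dendritic cells and Ctsd in neutrophils. The class order was alike in both libraries: over the 9 classes, the correlation between the libraries of log2 levels was between 0.975 (Ctsa) and 0.996 (Ctsl and Ctss). It is given as a description, since both libraries share the cell types and the processing. Macrophages, with 151 and 20 cells, stood outside these 9 classes and lay above all of them in both libraries, with intervals that did not overlap, for Ctsb, Ctsc, Ctsd, Ctss and Lgmn.

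**Figure D1:**
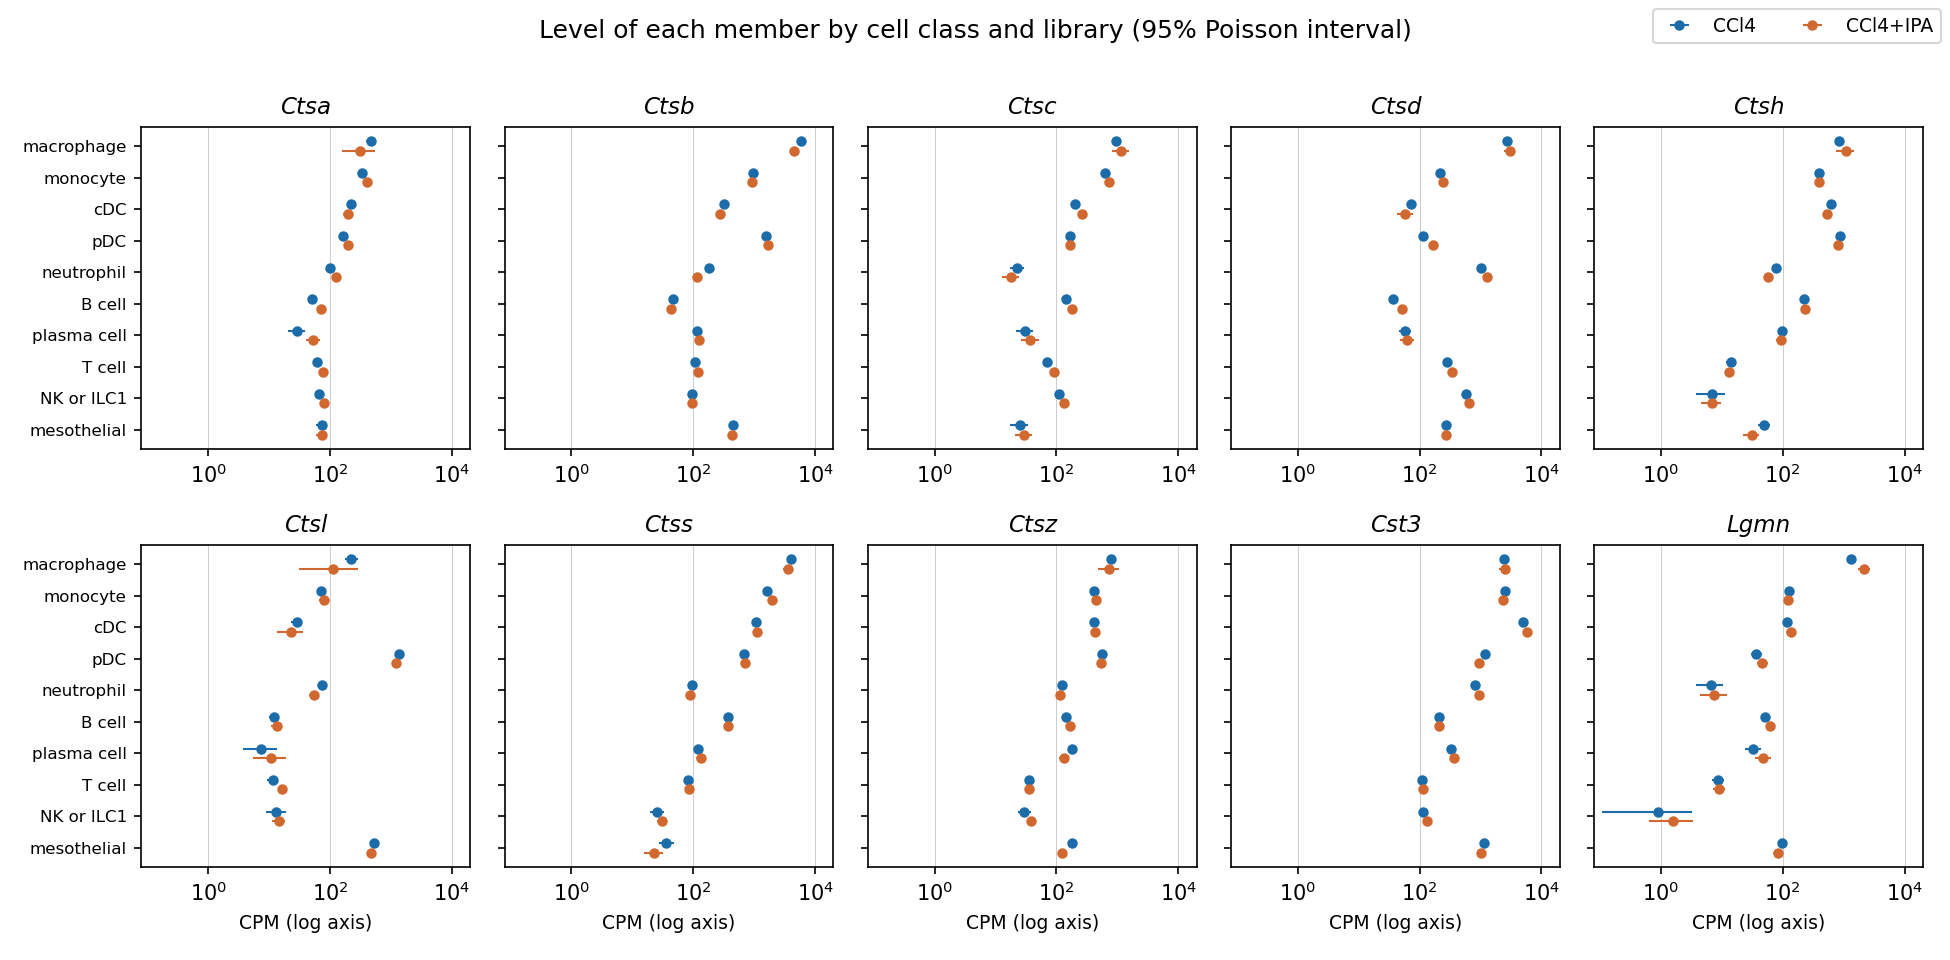
Level of each of the 10 genes (CPM, log axis) in 10 cell classes, with points for the CCl4 library (blue) and the CCl4+IPA library (orange) and bars for 95% Poisson intervals; cDC and pDC are conventional and plasmacytoid dendritic cells, and ILC1 is type 1 innate lymphoid cells. The distance between classes along the axis is mostly far larger than that between libraries, for example 1358 and 1200 CPM for Ctsl in plasmacytoid dendritic cells against 7.41 and 10.8 CPM in plasma cells.

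Cathepsin B, an endopeptidase that also removes dipeptides from the end of proteins, stood at 5976 CPM (5702 to 6259) and 4514 CPM (3842 to 5271) in macrophages. Of the 9 classes, plasmacytoid dendritic cells were highest, at 1595 CPM (1548 to 1642) and 1663 CPM (1610 to 1718), and monocytes at 957 and 922 CPM. Mesothelial cells, which cover the liver surface, held 449 and 439.6 CPM, above conventional dendritic cells at 320 and 274 CPM. B cells were lowest of the 9 classes, at 45.7 and 44.0 CPM, below T cells at 106 and 119.9 CPM.

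Cathepsin L, the endopeptidase that takes the place of cathepsin S in some cells that present antigen, was mostly found in a single class. Plasmacytoid dendritic cells held 57.2% and 65.1% of all its UMIs in analysed cells, at 1358 CPM (1315 to 1402) and 1200 CPM (1155 to 1247), 18.9-fold (15.9 to 22.6) and 15-fold (12.3 to 18.5) the level in monocytes. Mesothelial cells followed among the 9 classes at 528 and 477 CPM, while stellate cells or fibroblasts, outside them with 33 and 7 cells, held 1285 and 547 CPM. Monocytes were at 71.9 and 80.1 CPM and neutrophils at 72.9 and 54.0 CPM, a neutrophil to monocyte fold of 1.01 (0.808 to 1.27) and 0.675 (0.514 to 0.886). In the other 5 of the 9 classes Ctsl was at 28.5 CPM or less in both libraries.

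Cathepsin S, which cleaves the invariant chain from class II molecules and works at neutral pH too, lay on 4 levels whose intervals did not overlap. Macrophages held 4062 and 3612 CPM, monocytes 1599 (1542 to 1658) and 1956 (1880.0 to 2034), conventional dendritic cells 1071 and 1107 CPM, and plasmacytoid dendritic cells 669 and 710.5 CPM. B cells, with 373 and 374 CPM, were 4.50- and 4.37-fold above T cells. NK cells, a class that here takes in type 1 innate lymphoid cells, were at 25.8 and 30.2 CPM and mesothelial cells at 36.3 and 23.0 CPM, and these were the lowest of the 9 classes.

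Cathepsin H, an aminopeptidase, and cathepsin Z, a carboxypeptidase, had class patterns more like each other than any other pair of the 10. Their log2 levels correlated at 0.95 over the 18 sums of 9 classes and 2 libraries, and each was among the 3 genes most like the other. Ctsh was at 863 and 812 CPM in plasmacytoid dendritic cells, 609 and 539.9 CPM in conventional dendritic cells and 224 and 232 CPM in B cells. T cells held 14.2 and 13.3 CPM and NK cells 6.78 and 6.86 CPM, so B cells were 15.7- and 17.5-fold above T cells. Ctsz was at 568 and 546 CPM in plasmacytoid dendritic cells, and monocytes (420.4 and 454 CPM) and conventional dendritic cells (415 and 427 CPM) did not differ beyond counting error.

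Cathepsin C, which activates the granule proteases of neutrophils and cytotoxic lymphocytes, was highest in monocytes among the 9 classes, at 624 CPM (589 to 661) and 739 CPM (693 to 788). Conventional dendritic cells followed at 203 and 266 CPM, and B cells were at 142 and 183 CPM. NK cells held 112 and 133 CPM, 1.60- and 1.46-fold the level of T cells. Neutrophils were lowest of the 9 classes, at 22.6 and 17.7 CPM, with intervals that overlapped those of mesothelial cells in both libraries and those of plasma cells with CCl4 alone. Cathepsin A, a carboxypeptidase that also protects beta-galactosidase and neuraminidase, was at 339.8 and 403 CPM in monocytes and between 28.3 and 80 CPM in B, T, NK, plasma and mesothelial cells.

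Cathepsin D, an aspartic endopeptidase, was the one protease of the 10 that was higher in neutrophils and NK cells than in monocytes and dendritic cells. Neutrophils held 1022 CPM (984 to 1062) and 1265 CPM (1219 to 1312), NK cells 572 (541 to 604) and 653 (629 to 677) CPM and T cells 284 and 345 CPM, against 215 and 241 CPM in monocytes and 72.4 and 57.5 CPM in conventional dendritic cells. B cells were lowest of the 9 classes, and T cells exceeded them 7.72- and 6.71-fold. Among T cells, the cluster led by Ccl5 and Gzmk exceeded the cluster led by Lef1 and Tcf7 by 5.19-fold (4.23 to 6.43) and 3.55-fold (3.10 to 4.08). Its correlation with the other 9 genes over the 18 sums was lowest with Lgmn, at -0.64. Monocyte and macrophage markers had a median in T cells of 0.567% and 1.09% of their phagocyte level (ranges 0 to 61.6% and 0.081 to 19.1%), and Ctsd in T cells was at 51.1% and 109.4% of its own. Those markers come from phagocytes, whereas neutrophils held 24.3% and 22.5% and T cells 23.9% and 26.04% of the Ctsd UMIs, and the part of free RNA in the T cell level was not tested.

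Legumain was at 1320.5 CPM (1194 to 1457) and 2144 CPM (1690 to 2684) in macrophages, the highest of any named class in both libraries. Conventional dendritic cells (116 and 139 CPM), monocytes (125 and 123 CPM) and mesothelial cells (98.4 and 83.0 CPM) were highest of the 9 classes, and their order was not separated beyond counting error in both libraries. Of the small classes, stellate cells or fibroblasts held 210.5 and 243 CPM and migratory dendritic cells 264 and 50.9 CPM. Their IPA values rest on 7 and 13 cells, with only 16454 and 58935 UMIs over all genes, and no ratio is read from them. B cells held 51.8 and 62.0 CPM and T cells 8.79 and 8.98 CPM. In NK cells 2 and 7 UMIs were found among 557 and 1238 cells, and no ratio is read from them.

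Cystatin C, the inhibitor, was no higher in macrophages than in monocytes. Conventional dendritic cells held 4884 CPM (4813 to 4956) and 5699 CPM (5535 to 5867), and the 423 and 114 cells of this class held 45.4% and 21.9% of all Cst3 UMIs. Monocytes stood at 2514 and 2330.4 CPM and macrophages at 2404 and 2483 CPM, a macrophage to monocyte fold of 0.957 and 1.07 with intervals that span 1. Neutrophils held 809.9 and 926 CPM and T cells 109 and 112 CPM.

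The macrophage to monocyte fold separated the genes. It was 12.5 (11 to 14.1) and 12.4 (9.86 to 15.5) for Ctsd, 10.6 (8.96 to 12.5) and 17.4 (13.1 to 23.0) for Lgmn and 6.24 (5.84 to 6.67) and 4.90 (4.12 to 5.78) for Ctsb. It was 2.54 and 1.85 for Ctss, 2.12 and 2.75 for Ctsh, 1.86 and 1.62 for Ctsz and 1.5 and 1.57 for Ctsc. For Ctsl it was 3.11 (2.28 to 4.19) and 1.41 (0.377 to 3.72), the latter on 4 macrophage UMIs. For Ctsa it was 1.36 (1.13 to 1.64) and 0.771 (0.382 to 1.39). The latter rests on 11 macrophage UMIs, and its interval spans 1, so it gives no direction. Macrophage cells were shallow, with median depths of 1064 and 762.5 UMIs against 7186 and 6058.5 in monocytes, and 83 and 9 of them held no mitochondrial UMI. Their 17 macrophage markers summed to 12455 and 26974 CPM, against 639 and 502 CPM in monocytes.

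Within the macrophages, both clusters were led by C1q genes, with Apoe and Gpnmb among the leading genes of each. The larger (128 and 16 cells) also had Cd5l and Clec4f among them, a Kupffer cell pattern that was weaker in the CCl4 library. The smaller (23 and 4 cells) had Ms4a7 and Trem2, with Clec4f, Vsig4, Timd4 and Marco at 0 UMIs. In the CCl4 library Ctsd was at 3522 CPM in the Kupffer-type cluster and 1865 in the smaller cluster, a fold of 1.89 (1.63 to 2.19). Ctsb was at 6887 and 5105 CPM there, a fold of 1.35 (1.23 to 1.48), and Ctss did not differ, with a fold of 0.980. In that library the median depth was 961 UMIs in the Kupffer-type cluster and 6895 in the smaller cluster. Of their cells, 83 and 0 held no mitochondrial UMI. The part of this in the folds was not tested. Among monocytes the nonclassical cluster (54 and 20 cells), led by Ace and Ear2, exceeded the classical one (162 and 175 cells) in Ctsb by 2.31-fold (2.07 to 2.58) and 2.42-fold (1.98 to 2.92). Cst3 was also higher there, at 4495 against 2119.7 CPM with CCl4 and 4304 against 2281 CPM with CCl4+IPA. Ctsc went the other way, 2.47-fold (1.94 to 3.19) and 2.36-fold (1.48 to 4.00) higher in classical monocytes, as did Ctsh, 2.59- and 2.15-fold.

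Conventional dendritic cells also split by gene. The cluster with Batf3 among its leading genes (93 and 34 cells) held Cst3 at 6261 and 7764.5 CPM. The cluster with Cd209a and Clec10a among them (330 and 80 cells) held 4448 and 4632 CPM. Cst3 was itself first among the leading genes of the Batf3 cluster. Ctss was 1.40- and 1.44-fold, Ctsh 1.35- and 1.30-fold and Lgmn 1.49- and 1.98-fold higher in the Cd209a cluster. The inhibitor and 3 of the proteases were thus higher in different dendritic cell clusters, in both libraries.

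The comparison between the libraries is about IPA, which the series title links to profibrogenic macrophages and fibrosis. Monocytes and macrophages were first pooled as mononuclear phagocytes, 412 and 230 cells. In this pool Ctsb was at 1653 CPM (1599 to 1708) with CCl4 and 1019.5 CPM (966 to 1076) with CCl4+IPA, 1.62-fold lower (1.52 to 1.73). Ctsd was at 556 CPM (525 to 588) and 315 (286 to 347), 1.76-fold lower (1.58 to 1.98). Lgmn was at 291 CPM (269 to 314.5) and 178 (156 to 202), 1.64-fold lower (1.40 to 1.91). The intervals of the libraries do not overlap for any of these 3. With each cell gated alone the log2 ratios were -0.57, -0.60 and -0.41, so 1 of the 3 was still 1.5-fold lower. Without cells lacking a mitochondrial UMI, Ctsb fell short of 1.5-fold with a log2 ratio of -0.55.

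The other 7 genes were within 1.5-fold, with log2 ratios from -0.20 (Ctsl, 201 and 106 UMIs) to 0.17 (Ctsc). So 3 of 10 genes were at least 1.5-fold lower and 0 at least 1.5-fold higher, against 7.76% and 15.9% of the 8887 genes measured in this pool. The median log2 ratio was -0.12 over the 10 genes and 0.16 over all genes measured.

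The 3 genes that were lower in the pool are the 3 with the largest macrophage to monocyte fold, and the share of macrophages differed between the libraries. Macrophages were 1.51% (1.28 to 1.77) and 0.198% (0.121 to 0.305) of all cells analysed, and monocytes 2.61% and 2.07%. Macrophages held 50.1% (48.5 to 51.8) and 12% (10.3 to 13.9) of the Ctsb UMIs of the pool. They held 66.7% (64.0 to 69.4) and 25.7% (21.5 to 30.2) of its Ctsd UMIs and 63.0% (59.1 to 66.7) and 32.6% (26.6 to 39.1) of its Lgmn UMIs. For Cst3 the parts were 13.3% and 2.88%. When both libraries were weighted to the same mix of 5 clusters, Ctsb was at 2501 and 2176 CPM, Ctsd at 1030.1 and 1161 CPM and Lgmn at 467 and 759 CPM, log2 ratios of -0.20, 0.17 and 0.70. With the same mix 0 of the 10 genes were at least 1.5-fold lower. These weighted values rest on clusters that held only 16, 15 and 4 cells of the IPA library. Their weights were cell numbers over both libraries, whereas the pool sums UMIs, so shallow clusters count for more in them. The weighted levels are thus not on the scale of the pooled ones.

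**Figure D2:**
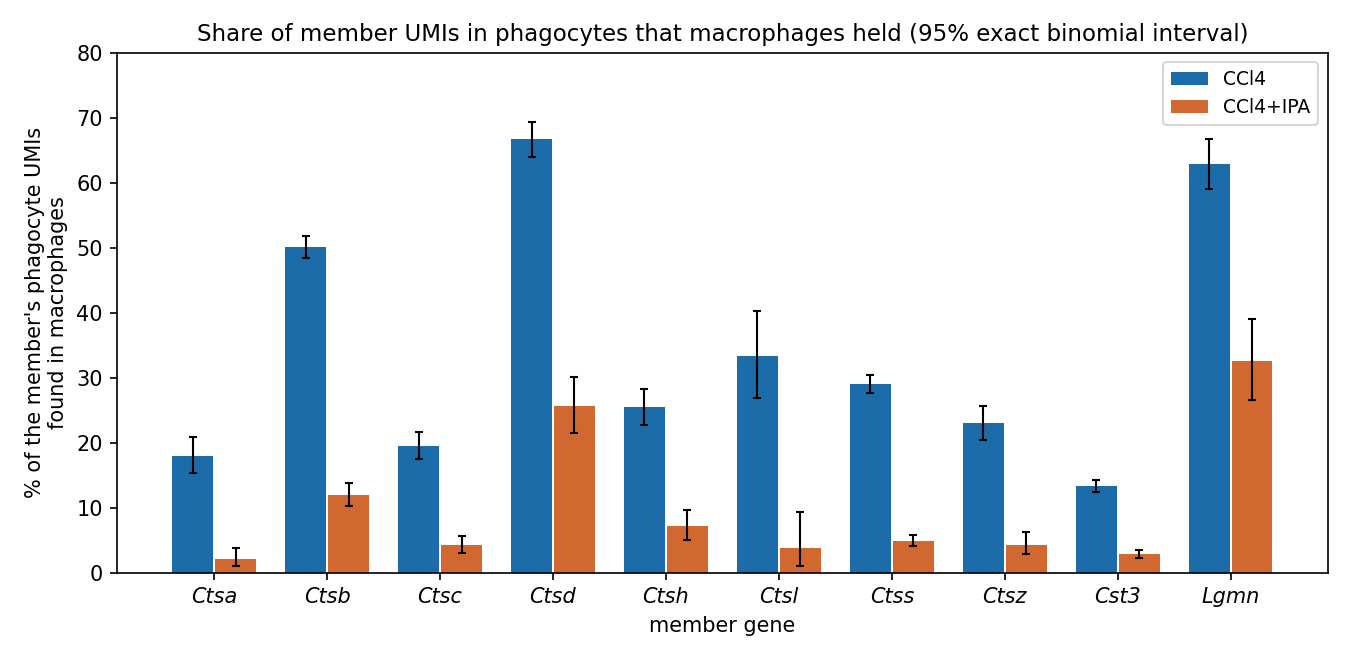
Share of the UMIs of each gene in the pooled monocytes and macrophages that came from macrophages (percent), in the CCl4 library (blue) and the CCl4+IPA library (orange), with exact 95% binomial intervals. The bars of the IPA library are below those of the CCl4 library for all 10 genes, with the CCl4 bar highest for Ctsd (66.7%) and lowest for Cst3 (13.3%).

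Within monocytes (261 and 210 cells) 0 of 10 genes differed by 1.5-fold in either direction, against 14.9% of 8620 genes higher and 6.71% lower. Ctsb was at 957 (913 to 1003) and 922 (870 to 977) CPM, Ctsd at 215 (194 to 237) and 241 (215 to 269.5) and Lgmn at 125 (109.5 to 142) and 123 (105 to 144), and in each the intervals overlap. Cathepsin S was the gene with the largest ratio, 1.22 (1.16 to 1.29), and Ctsa and Ctsc had ratios of 1.19 (1.05 to 1.33) and 1.19 (1.09 to 1.29). These sit near the median of all genes in monocytes, a log2 ratio of 0.15. In the classical cluster alone the 10 log2 ratios ran from -0.13 (Ctsh) to 0.21 (Ctss), and 0 passed 1.5-fold where 18.4% of 7759 genes were higher and 4.95% lower.

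Within macrophages (151 and 20 cells) Lgmn was 1.62-fold (1.25 to 2.08) higher in the IPA library, and Ctsb was lower, with a ratio of 0.756 (0.639 to 0.889). Ctsd was at 2674 (2492 to 2866) and 2991 (2449 to 3617) CPM, and the intervals overlap. Here 1 of 10 genes was at least 1.5-fold higher and 1 (Ctsl, on 67 and 4 UMIs) at least 1.5-fold lower, against 23.9% and 18.3% of 2289 genes. The 8 Kupffer cell markers summed to 1437 and 10722 CPM in these macrophages, so their makeup differed between the libraries. In the Kupffer-type cluster the same markers summed to 2676 and 16167 CPM, and Lgmn was at 1447 and 2808 CPM, a ratio of 1.94 (1.45 to 2.57). The part of this difference in makeup in the Lgmn ratio was not tested.

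**Figure D3:**
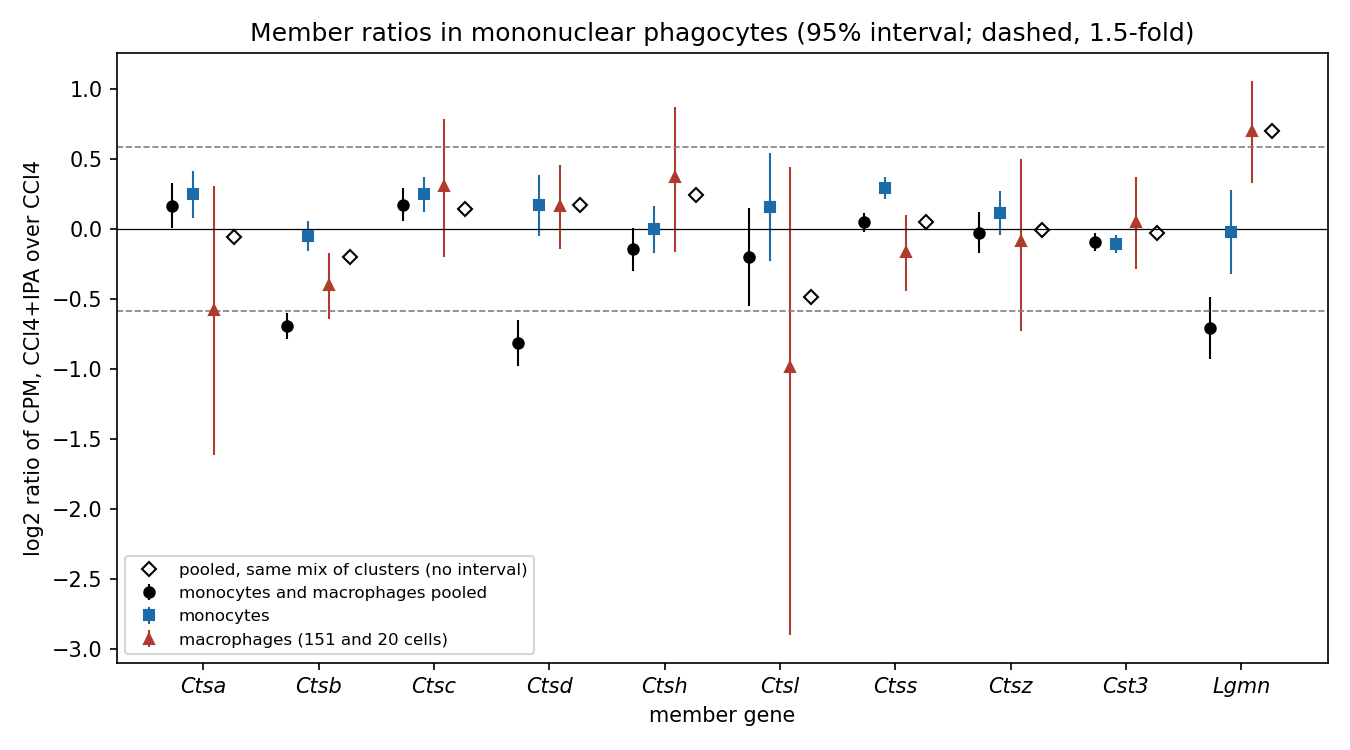
The log2 ratio of CPM (CCl4+IPA over CCl4) of each gene in monocytes and macrophages pooled (black), in monocytes (blue), in macrophages (red, 151 and 20 cells) and in the pool weighted to the same mix of clusters (open diamonds), with 95% intervals except for the diamonds and dashed lines at 1.5-fold. For Ctsb, Ctsd and Lgmn the pooled point lies below the lower dashed line while the monocyte point lies near 0. The diamonds weight clusters by cell numbers, whereas the pooled points sum UMIs.

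Neutrophils gave a further difference. Ctsb was at 179.9 CPM (164 to 197) and 115 CPM (101.5 to 130.0), 1.56-fold lower (1.34 to 1.83) in the IPA library, while Ctsd was higher, at 1022 and 1265 CPM with a ratio of 1.24 (1.17 to 1.31). It was 1 of 10 genes at least 1.5-fold lower and 0 were higher, against 5.66% and 13.4% of 8177 genes. The count lower depended on the cells taken: it was 0 with every cell weighted the same, with cells of at least 200 genes and at a finer clustering, and 7 with each cell gated alone (1404 and 1092 cells). In the larger neutrophil cluster (694 and 920 cells) Ctsb was at 248 and 130.0 CPM, a ratio of 0.525 (0.442 to 0.622), and Ctsl at 70.9 and 36.1 CPM, a ratio of 0.509 (0.365 to 0.703). In the smaller cluster (168 and 158 cells), led by Ltf, Ngp and Camp, which code for secondary granule proteins, Ctsb was at 65.8 and 78.3 CPM, a ratio of 1.19 (0.806 to 1.75).

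The neutrophil Ctsb UMIs were concentrated. In the CCl4 library 8 of 862 cells held 25.4% of them, and in the IPA library 10 of 1078 cells held 16.2%. At a finer clustering, 241 and 231 of these cells fell in a cluster led by Ptgs2, Il1rn and Cxcl2 in which 22.8% of cells were called doublets, and they held Ctsb at 526.5 CPM (466 to 593) and 273 CPM (221 to 334). The remaining 621 and 847 neutrophils held 94.6 CPM (81.9 to 108.7) and 86.3 CPM (73.6 to 100.5). Their Ctsd was at 873 and 1248 CPM. Macrophage markers summed to 61.8 and 106 CPM in the larger cluster, and the part of doublets in the Ctsb difference was not tested.

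The neutrophil clusters also differed from each other. The larger cluster exceeded the smaller one in Ctsa by 5.66- and 4.67-fold, in Cst3 by 3.40- and 3.30-fold, in Ctsz by 3.63- and 2.90-fold and in Ctsd by 2.65- and 2.02-fold. Ctsh went the other way in the CCl4 library, with a fold of 0.725 (0.545 to 0.968), and was at 0.725 (0.501 to 1.06) in the IPA library. Ctsl went the other way in the IPA library, with 0.367 (0.253 to 0.533), and was at 0.932 (0.690 to 1.27) in the CCl4 library. The intervals that span 1 give no direction.

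Dendritic cells of both kinds had 0 of 10 genes past 1.5-fold. In conventional dendritic cells the background was 20.9% of 9482 genes higher and 6.46% lower, and Cst3 was 1.17-fold (1.13 to 1.21) and Ctsc 1.31-fold (1.12 to 1.53) higher in the IPA library. In plasmacytoid dendritic cells it was 17% and 3.67% of 10125 genes. There Ctsd was at 112 CPM (99.9 to 125) and 163 CPM (146 to 181), a ratio of 1.45 (1.25 to 1.70), while Cst3 had a ratio of 0.802 (0.759 to 0.848) and Ctsl one of 0.884 (0.841 to 0.929). As log2 ratios Cst3 was at 0.22 in conventional and -0.32 in plasmacytoid dendritic cells, against all-gene medians of 0.20 and 0.19. The value in conventional dendritic cells thus lay near the shift of all genes, while that in plasmacytoid dendritic cells lay below it. The difference between the 2 kinds was not tested. In conventional dendritic cells, 4 of 423 and 1 of 114 cells held 5.96% and 8.44% of the Cst3 UMIs. The Batf3 cluster, 1.41- and 1.68-fold above the Cd209a cluster in Cst3, held 93 of the 423 and 34 of the 114 cells. The part of cell mix and of single cells in the Cst3 ratio was not tested.

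In lymphocytes the 10 genes stayed close to the shift of all genes. B cells and T cells had 0 of 10 genes and NK cells 0 of the 9 measured past 1.5-fold in either direction, where 17.4%, 18.4% and 19.2% of genes were higher and 3.11%, 3.42% and 2.72% lower. All-gene medians of the log2 ratio were 0.28, 0.28 and 0.23. Medians over the 10 genes in B and T cells, and over the 9 measured in NK cells, were 0.17, 0.11 and 0.21. Ctsa in B cells was at 50.5 and 72.0 CPM, a ratio of 1.43 (1.27 to 1.61), and Ctsc had ratios of 1.29 in B cells and 1.30 in T cells. In plasma cells Ctsa was 1.87-fold (1.23 to 2.87) higher, on 42 and 54 UMIs, 1 of 10 genes against a background of 16.9%, and 0 were lower against 12%.

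Mesothelial cells (80 and 99 cells) had Ctsh at 49.5 and 30.7 CPM (71 and 44 UMIs) and Ctss at 36.3 and 23.0 CPM (52 and 33 UMIs), log2 ratios of -0.69 and -0.66. These were 2 of 10 genes at least 1.5-fold lower, against 9.12% of 10367 genes, with 0 higher against 15.6%. Both changed sign when every cell weighed the same, with log2 ratios of 0.44 and 0.05, and Ctss also when doublets were kept, at 0.38. Their 3 abundant genes differed less: Ctsb stood at 449 and 439.6 CPM, Ctsl at 528 and 477 CPM and Cst3 at 1139 and 1008 CPM.

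**Figure D4:**
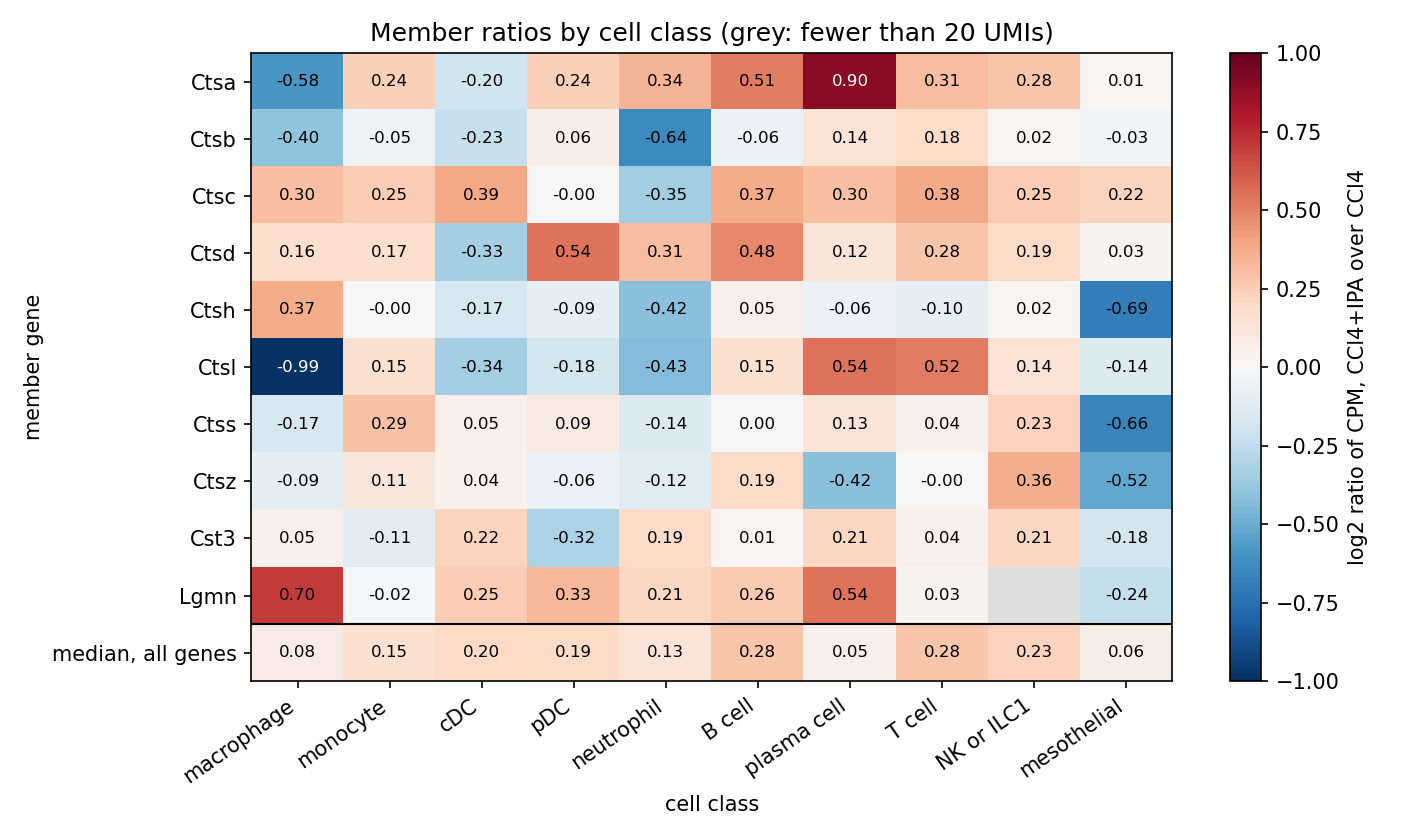
The log2 ratio of CPM (CCl4+IPA over CCl4) of each gene (vertical axis) in each cell class (horizontal axis), printed in each cell and coloured from blue (lower) to red (higher), with the median of all genes of the class in the bottom line and grey for fewer than 20 UMIs. Most values lie within 0.5 of 0, and the macrophage column, with 20 cells in the IPA library, has the widest range, from -0.99 (Ctsl) to 0.70 (Lgmn).

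The share of cells with a UMI was compared after each cell was thinned to 1000 UMIs, which left out 4 and 8 monocytes and 65 and 180 T cells. Ctss was then found in 72.8% (66.9 to 78.1) and 78.7% (72.4 to 84.2) of monocytes, and in 8.09% and 7.5% of T cells, the class set beside them for free RNA. Without thinning the shares were 95.4% and 97.1% of monocytes (median depths of the kept cells 7236 and 6226.5 UMIs) and 26.2% and 22.6% of T cells (3857 and 3148 UMIs). Thinned Ctsb was found in 57.2% and 58.4% of monocytes, and in 69.4% and 59.7% of the pooled phagocytes, of which 72 and 19 shallow cells were left out. Thinned Lgmn was found in 13.2% and 14.4% of monocytes, in 29.7% and 14.7% of the pool and in 0.489% and 0.757% of T cells. Thinned Ctss was found in 78.2% and 85.8% of the pool.

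The genes with the class pattern most like each of the 10 were ranked by Pearson correlation over the 18 sums, among 3019 genes, as a description of sums that share libraries and depth. For Ctsb the closest was Grn (0.93), which codes for the lysosomal protein progranulin. For Ctss it was Ifi30 (0.941), a lysosomal thiol reductase of antigen processing, and for Ctsa the third was Psap (0.924), the precursor of saposins. Lgmn had Cd74 (0.843), the invariant chain, among its 3, and Cst3 had Asah1 (0.912), acid ceramidase. For Ctsd they were Vps28 (0.914), Selenon (0.907) and Mfsd6 (0.904), and for Ctsl Tcf7l2 (0.911), Sp3 (0.909) and Npc1 (0.905), which moves cholesterol out of the lysosome. Ctsh had Rnase6 (0.958) and Ly86 (0.957) ahead of Ctsz.

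Most other lysosomal genes were within 1.5-fold in the pool of monocytes and macrophages, as were most genes of any kind. Of the 8887 genes measured there, 15.9% were at least 1.5-fold higher and 7.76% lower, with a median log2 ratio of 0.16. These shares are the background of every list count in the pool given here and below. The pool also carries the different share of macrophages in the 2 libraries, whose part in the list values was not tested. Of 33 hydrolases and cofactors, 32 were measured, 1 was at least 1.5-fold higher and 3 lower, with a median log2 ratio of 0.07. The acid phosphatase Acp5 was at 90.2 and 36.7 CPM, 2.46-fold lower (1.79 to 3.45), and the cholesterol carrier Npc2 at 1119 and 1522 CPM. Of 14 lysosomal membrane proteins 1 was higher and 1 lower, with a median of 0.10. The lower one was the tetraspanin Cd63, with 172 and 8 UMIs, 13-fold lower (6.46 to 30.6). Of 19 subunits of the proton pump (vacuolar ATPase), which acidifies the lysosome, 17 were measured, 1 higher and 2 lower, with a median of 0.17. Tcirg1, one of its membrane subunits, was at 66.6 and 120.7 CPM. In monocytes alone 2 hydrolases and cofactors were higher and 1 lower, against 14.9% and 6.71% of 8620 genes. Of the membrane proteins 1 was higher and 0 lower there, and of the pump subunits 1 was higher and 1 lower. Acp5 was 1.62-fold lower in monocytes, with an interval that spans 1 (0.992 to 2.74).

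Of 14 genes that sort enzymes to the lysosome 13 were measured in the pool, 2 were higher and 0 lower. Sort1, the receptor sortilin, was at 50.4 and 82.5 CPM. Of 9 regulators of lysosome biogenesis 8 were measured and 0 passed 1.5-fold, with a median of 0.28. The factors Tfe3 and Tfeb were at 50.4 and 75.6 CPM and at 37.5 and 50.4 CPM. Of 6 further cathepsins 2 were measured and 0 passed 1.5-fold. Of 24 further cystatins and other cathepsin inhibitors 5 were measured, 1 higher and 2 lower, and cystatin B (Cstb) was at 247 and 241 CPM.

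The list that stood lowest was that of class II antigen processing, whose chain Cd74 is a substrate of cathepsin S. Of its 8 genes 6 were at least 1.5-fold lower in the pool, against 7.76% of all genes, with a median log2 ratio of -0.93. H2-Ab1 was at 1428 and 493 CPM, 2.90-fold lower (2.66 to 3.16), and H2-Eb1 at 1167 and 447.5 CPM. In monocytes 5 of 8 were lower, against 6.71% of all genes, with a median of -0.81. In the classical cluster alone 0 were lower, against 4.95%, with a median of 0.07. Ctss in the pool was at 1941 and 2001 CPM, so Ctss did not share the lower values of the class II genes there. Of 11 genes of RNA quality and dissociation stress 2 were lower, Rn18s-rs5 and Lars2, and 0 higher, with a median of -0.06.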

How the data were processed

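Single-cell 3′ RNA was measured in 1 library per group. The deposited matrices hold UMI counts per gene and barcode, made by the authors and, per the file headers, by Cell Ranger 7.1.0, and aligned to mm9 per the submitters' processing notes. The sources used here do not give the counting of introns or the calling of cells. Promoters carry GRCm38.p6 coordinates and were matched by symbol alone.

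Barcodes with at least 500 UMIs, 300 genes and under 20% mitochondrial UMIs were kept (10294 and 10459). Doublets were removed by Scrublet and by clusters with at least 20% calls (286 and 332 cells). The 10 genes, the gene lists and immunoglobulin and T cell receptor genes were left out of the 2000 variable genes. Leiden clustering used 30 components, 20 neighbours and resolution 1, and was repeated within myeloid cells. It was also repeated within a second group of stellate, mesothelial, endothelial, hepatocyte, cholangiocyte and granulocyte progenitor cells. Clusters were named for the marker list with the largest mean log2 fold, if that was at least 1 and 3 or more markers reached 1. Clusters closest to the T cell or NK list were named T cells without this limit if Cd3d, Cd3e and Cd3g summed to 300 CPM. Clusters with more leading genes from another list stayed unnamed, as did shallow clusters without an own marker among their leading genes. The limits for names and the merging of the dendritic cell lists were set after the clusters had been seen.

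UMIs were summed per class and library. Levels have Poisson, ratios conditional binomial and shares Clopper-Pearson intervals, at 95%. A gene was measured with 20 UMIs over both libraries, and a fold of 1.5 was counted. All 10 genes are named; from each list the 2 highest and 2 lowest ratios in phagocytes, and per gene the 3 highest correlations of log2(CPM + 10), could be named, and not all are printed. Genes of the closing section beyond the 10 were chosen after their values were seen. The 10 genes and the lists were chosen with earlier results of these data known. The pairs of clusters compared, the motifs, the neutrophil split, the concentration of UMIs and the removal of cells without a mitochondrial UMI were chosen after seeing the data. Scripts were tested on simulated data. Clustering used scanpy 1.11.5, leidenalg 0.10.2, igraph 0.11.9 and scikit-learn 1.9.0 in Python 3.11.15 (seed 1), intervals scipy 1.17.1 and numpy 2.4.6, tables pandas 2.3.3 and figures matplotlib 3.10.9. Alternatives kept doublets, changed cell filters, scaling, weighting, resolution or gating, dropped the UMI minimum, or fixed the mix of clusters.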

Additional observations from a re-analysis of the deposited data

Results flagged for a closer look

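For 4 of the 10 genes the ratio between the libraries lay above 1 in one cell class and below 1 in another, with 95% intervals that did not include 1. None of these differences between classes was tested. The log2 ratio of Ctsb (CCl4+IPA over CCl4) was -0.64 in neutrophils and 0.18 in T cells, and the neutrophil value was -0.13 at the finer clustering, which placed 241 and 231 of the cells in a cluster with many doublet calls. That of Ctsl was -0.43 in neutrophils and 0.52 in T cells, on 105 and 156 UMIs in the latter. That of Ctsz was -0.52 in mesothelial cells and 0.19 in B cells. That of Cst3 was -0.32 in plasmacytoid dendritic cells and 0.22 in conventional dendritic cells. In the latter, 1 of 114 cells of the IPA library held 8.44% of the Cst3 UMIs. The all-gene medians were 0.13 in neutrophils, 0.28 in T cells, 0.06 in mesothelial cells and 0.28 in B cells. They were 0.19 in plasmacytoid and 0.20 in conventional dendritic cells. The values of Ctsb in T cells and of Ctsz in B cells thus lay below the shift of all genes. That of Cst3 in conventional dendritic cells lay near it, and that of Ctsl in T cells above it.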

How the results depend on the processing

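Over 11 alternatives, 1099 ratios of the 10 genes were recomputed: 952 stayed within the counting interval and 142 moved past it. The other 5 had been at least 1.5-fold and changed sign. Sign changes of smaller ratios were not counted apart and lie among the 952 and 142. Of the 5, Ctss in mesothelial cells changed with doublets kept (0.38) and with every cell weighted the same (0.05). Ctsh in mesothelial cells changed with every cell weighted the same (0.44). Ctsd (0.17) and Lgmn (0.70) changed in pooled phagocytes with the same mix of clusters. In that pool the log2 ratios of Ctsb, Ctsd and Lgmn were otherwise below 0 in every alternative run: -0.55, -0.64 and -0.62 without cells lacking a mitochondrial UMI (an alternative chosen after seeing the data) and -1.17, -1.28 and -0.86 with every cell weighted the same. The count of genes at least 1.5-fold lower in the pool (3) was 1 with each cell gated alone, 2 without cells lacking a mitochondrial UMI, where Ctsb fell short, and 0 with the same mix. The median of the 10 genes there (-0.12) was -0.29 when scaled without mitochondrial, ribosomal, haemoglobin and immunoglobulin UMIs, -0.28 less the all-gene median and -0.26 with every cell weighted the same. In conventional dendritic cells the median (-0.06) was -0.24 and -0.27 under those scalings. In neutrophils the count lower (1) was 2 with doublets kept, 0 with cells of at least 200 genes, with equal weights and at resolution 2, and 7 with each cell gated alone, where the median (-0.13) was -0.81 over 1404 and 1092 cells. Thinned to 500 and 2000 UMIs, Ctsb was found in 57.3% and 83.3% of pooled phagocytes of the CCl4 library and 36.5% and 82.5% of the IPA library, the deeper thinning leaving out more of the shallow cells. The causes were not tested. No paired analysis was possible because each group has 1 library, whose replicate number is only its order, and no replicate could be left out. Depth limits the macrophages of the IPA library (35442 UMIs), where the upper bound of the Ctsl interval was 289 CPM against 30.8 CPM for the lower.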

Other observations

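Ctsw, a protease of cytotoxic lymphocytes, was at 551 and 586 CPM in NK cells and at 193 and 194 CPM in T cells. Ctsg, a granule protease, was at 1437 and 634 CPM in granulocyte progenitors, with 9 and 21 cells. Ctso was highest among classes of at least 50 cells in plasmacytoid dendritic cells, at 196 and 222 CPM. Stfa2l1 and Cstdc4, of the stefin family, were chosen after their values were seen and were at 829.5 and 917 CPM and at 631 and 819 CPM in neutrophils. Cystatin F (Cst7) was at 107 and 109 CPM in NK cells.

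Classes with few cells add values without a comparison. Migratory dendritic cells (13 and 13 cells) held Cst3 at 7191 CPM (6681 to 7730) and 5345 CPM (4771 to 5969). Basophils or mast cells (50 and 34 cells) held Ctsd at 976 and 1188 CPM. Stellate cells or fibroblasts (33 and 7 cells) held Ctsl at 1285 CPM (1204 to 1370.5) on 928 UMIs in the CCl4 library, and 9 UMIs were found in the IPA library. An unnamed cluster led by haemoglobin genes, Ctsg, C1qb and Mpo held 556 and 1 cells, and the 10 genes made up 0.378% of its UMIs in the CCl4 library.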
